A study of Mus musculus with 20 samples.

Results

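Hair keratins and keratin-associated proteins were followed across mouse skin, actinic keratosis and carcinoma. The members were all genes of the count table whose symbol begins with Krtap, together with Krt25 to Krt28, Krt31 to Krt36, Krt71 to Krt75 and Krt81 to Krt86 where a row was present. This gave 77 of 22090 genes, 21 of them keratins and 56 of them Krtap genes. Krt85 was not analysed here.

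The data were RNA-seq read counts of back skin from female hairless SKH-1 mice that entered the study at 7 months of age, with tissue taken after a further course of many weeks. Of 8 mice, 4 were left without ultraviolet light and 4 were irradiated repeatedly (every day in the labels, on most days of the week in the study's methods). Normal skin (NS, n = 8) came from both sets of mice, and the irradiated mice also gave actinic keratosis (AK, n = 8, taken as AK-1 and AK-2 from each mouse) and cutaneous squamous cell carcinoma (cSCC, n = 4). The labels give neither the mouse of a tissue nor which NS were irradiated, so AK tissues that share a mouse could not be matched and p-values treat them as separate samples. All groups share the SKH-1 background, whose mice carry a defective Hr (hairless) gene. Libraries held between 775750 and 14055206 counts. In the whole table the 62 pairs of libraries within groups all differed by more than counting noise (chi-square at least 11.3 times its degrees of freedom), so none was a library deposited in duplicate. Among the cSCC, the summed level of 7 lung genes was 35923 CPM (scaled read counts, comparable between libraries) in replicate 20 against 3.95 to 8.34 CPM in the other libraries of the group, and the summed level of 8 heart muscle genes was 58246 CPM in replicate 21 against 70.2 to 162 CPM in the others. For cSCC, the members and list genes called are therefore also given without these libraries.

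A growing hair is built in concentric layers. The inner root sheath, which moulds the hair, makes the type I keratins Krt25 to Krt28 and the type II keratins Krt71 to Krt74. The companion layer around it makes Krt75. The type I keratins Krt31 to Krt36 and the type II keratins Krt81 to Krt86 are classed here as shaft keratins. Keratin filaments pair 1 type I with 1 type II chain, and Krtap proteins, small and rich in cysteine or in glycine and tyrosine, fill the space between filaments in the shaft and link them through disulphide bonds. In hairless mice the first coat is lost early in life and the follicles do not regrow normal hair, while cysts and remnants of follicles stay in the skin.

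The members lie in gene clusters. In the GENCODE annotation of GRCm38, 23 Krtap genes lay at chr11:99550130-99993994 and 25 at chr16:88610705-89571183, with 5 on chromosome 7, 2 on chromosome 10 and 1 on chromosome 1. The type I inner root sheath keratins (chr11:99315516-99374903) and the type I shaft keratins (chr11:100011195-100105626) flanked the first Krtap cluster. The type II shaft keratins (chr15:101459061-101550667), Krt75 and the type II inner root sheath keratins (chr15:101733949-101802346) followed each other on chromosome 15. RefSeq promoters of GRCm38.p6, from 250 bases before to 50 bases after a start site, matched 66 of the 77 members. The letters TATAAA, on either strand, stood in 81.8% of these 66 promoters and in 13.6% of the 32851 promoters of all genes. The usual place of a TATA box was then searched, on the gene's own strand from 40 to 15 bases before the start site. TATAAA lay wholly within this stretch in 59.1% of member promoters and in 1.99% of all promoters. The letters TTTAT on either strand, which occur at the core of sites of the hair homeobox factor Hoxc13, stood in 90.9% of member promoters and 40% of all promoters. Because TATAAA contains the reverse complement of TTTAT, the same search after removal of TATAAA gave 53.0% and 33.5%. CTTTGA or CTTTGT on either strand, the letters of sites of Lef1, stood in 50% and 31.2%. Neighbouring members share sequence, so the 66 promoters are not independent, and a match is a description of letters.

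To show the shared element, the 120 bases before the start site of 6 members that the results turn on are given 5' to 3' on the gene's strand, which was the minus strand in each, with every TATAAA in capitals. They are an inner root sheath keratin, a shaft keratin, 3 Krtap genes with unlike patterns over libraries, and Krt75. They cover chr11:99322952-99323071, chr11:100088270-100088389, chr11:99556854-99556973, chr11:99581017-99581136, chr16:89487953-89488072 and chr15:101573905-101574024, in that order.
Krt25: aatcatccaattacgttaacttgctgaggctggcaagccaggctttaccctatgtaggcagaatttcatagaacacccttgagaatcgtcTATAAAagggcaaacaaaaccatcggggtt
Krt32: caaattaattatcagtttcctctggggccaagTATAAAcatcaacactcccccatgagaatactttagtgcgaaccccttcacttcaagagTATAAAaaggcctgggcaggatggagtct
Krtap3-2: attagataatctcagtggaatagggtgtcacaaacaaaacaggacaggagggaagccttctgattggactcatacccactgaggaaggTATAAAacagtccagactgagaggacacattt
Krtap1-5: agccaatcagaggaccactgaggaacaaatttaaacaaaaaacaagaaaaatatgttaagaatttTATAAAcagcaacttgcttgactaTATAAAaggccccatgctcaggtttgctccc
Krtap8-1: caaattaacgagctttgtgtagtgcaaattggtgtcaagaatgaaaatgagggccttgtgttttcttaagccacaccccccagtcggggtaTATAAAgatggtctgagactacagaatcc
Krt75: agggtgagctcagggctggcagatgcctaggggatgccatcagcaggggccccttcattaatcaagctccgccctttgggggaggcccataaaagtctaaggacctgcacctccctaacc
The TATAAA nearest to the start began at position -30 in Krt25, -29 in Krt32, -32 in Krtap3-2, -31 in Krtap1-5 and -29 in Krtap8-1. The same window of Krt75 had no TATAAA, nor did that of the type II hair keratin Krt84. This was not particular to them. Krtap14, Krtap15 and Krtap19-3, whose counts lay almost only in NS replicates 4 and 5 and AK replicate 14, had none in this window either.

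Most members were silent or near silent in most libraries. Of the 77 members, 69 had a count in at least 1 library and 57 had 10 or more counts over all 20 libraries. Only 16 members had counts in 10 or more libraries, and 38 had counts in 1 to 3 libraries. The 8 members with no count in any library were Krtap5-1, Krtap5-3, Krtap5-4, Krtap9-5, Krtap13, Krtap29-1, Krtap31-1 and Krtap31-2. No count was seen for 10 members in NS, 17 in AK and 58 in cSCC, the group with the fewest libraries.

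Expression of the shaft genes was concentrated in a few libraries that cut across the groups. The summed CPM of all 77 members ranged in NS from 20.6 to 1156 with a median of 80.1, in AK from 7.19 to 1008 with a median of 25.4, and in cSCC it was 42.4, 39.1, 23.9 and 18.2. The groups overlapped. The highest values were those of NS replicate 5 (1156 CPM), AK replicate 14 (1008 CPM) and NS replicate 4 (683 CPM), followed by NS replicate 6 (144 CPM) and NS replicate 1 (121 CPM). The other 7 AK libraries lay at or below 34.5 CPM. In bulk tissue, fewer cells of a type and less RNA per cell cannot be told apart.

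**Figure D1:**
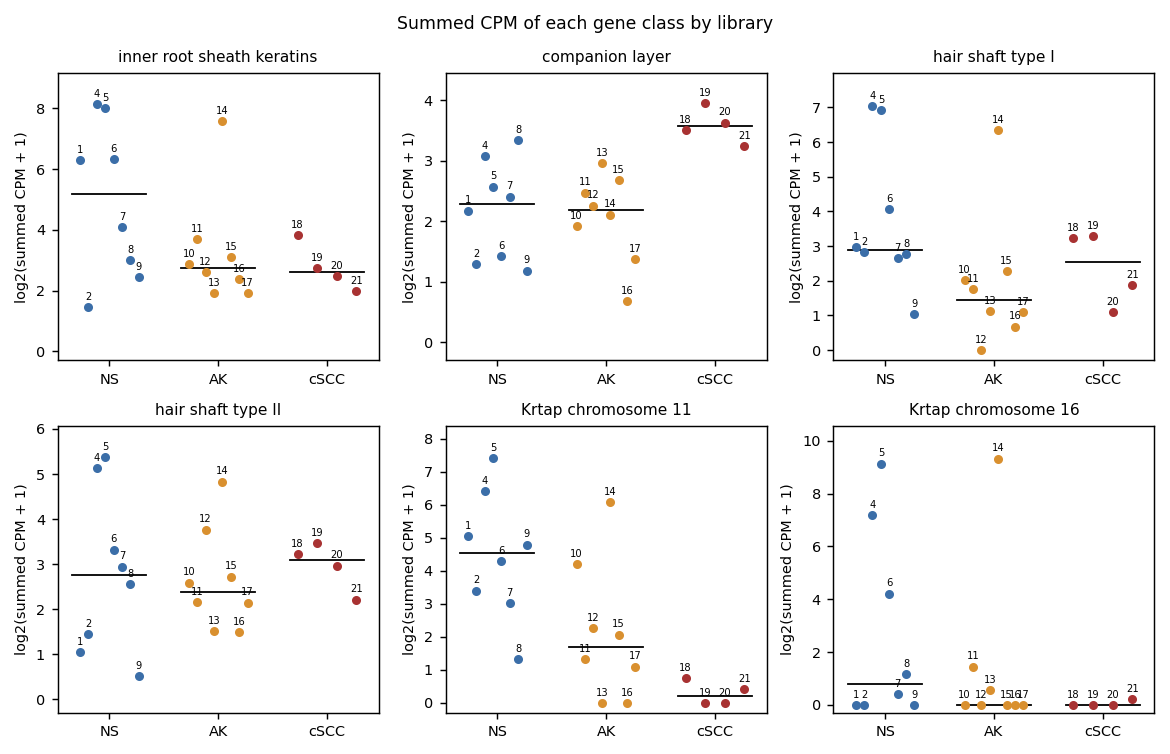
Summed CPM of 6 classes of hair genes on the log2(CPM + 1) scale, with 1 point for each library, its replicate number above it and a bar at the group median. NS 4, NS 5 and AK 14 stand highest in both inner root sheath and shaft panels and among the chromosome 16 Krtap genes, where the AK and cSCC medians are 0, whereas the companion layer keratin Krt75 has its highest median in cSCC.

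The number of genes detected told the same libraries apart at equal depth. Of the 56 Krtap genes, 46 had a count in NS replicate 5, 38 in AK replicate 14, 35 in NS replicate 4 and 11 in NS replicate 6, and between 0 and 4 in each of the other libraries. After thinning every library to 775750 counts, the expected numbers were 39.2, 31.2, 26.9 and 9.02, and none of the others exceeded 2.51. AK replicate 10, the most deeply sequenced library with 14055206 counts, held 0 counts of the 25 chromosome 16 Krtap genes, which allows at most 0.225 CPM (3 counts, counting error only).

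How far each gene was concentrated was then measured. NS replicate 4, NS replicate 5 and AK replicate 14 were the 3 libraries with the highest summed CPM of the chromosome 16 Krtap genes, so the shares are a description of what these libraries hold and nothing is read from them against all genes. Members such as Krtap1-5, Krtap9-3 and Krtap4-7 reached 10 counts through these libraries alone. Of all 16061 genes with 10 or more counts, 0.274% had at least 95% of their CPM in these 3 libraries, with a median share of 13.9%. By class of member it was 21 of 22 chromosome 16 Krtap genes, 9 of 14 chromosome 11 Krtap genes, 1 of 12 shaft keratins and 0 of 7 inner root sheath keratins. The lowest shares were those of Krt84 (13%) and Krt75 (14.7%), which lay at the median of all genes. Outside the members, 13 genes passed the same limit, again as a description of libraries picked by their chromosome 16 Krtap levels. Of these, 9 lay inside the Krtap clusters (Gm10229, 1110025L11Rik, Gm10228, Gm10061, Gm11568, Gm11563, Gm11559, Gm11567 and Gm11562), and they were 4 of the 4 other genes with 10 counts in the chromosome 16 cluster and 5 of the 6 in the chromosome 11 cluster. The remaining 4 were Gprc5d, an orphan receptor gene of the hair cortex, Krt40, a further type I hair keratin, Gm10024 and Vmn1r68.

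**Figure D2:**
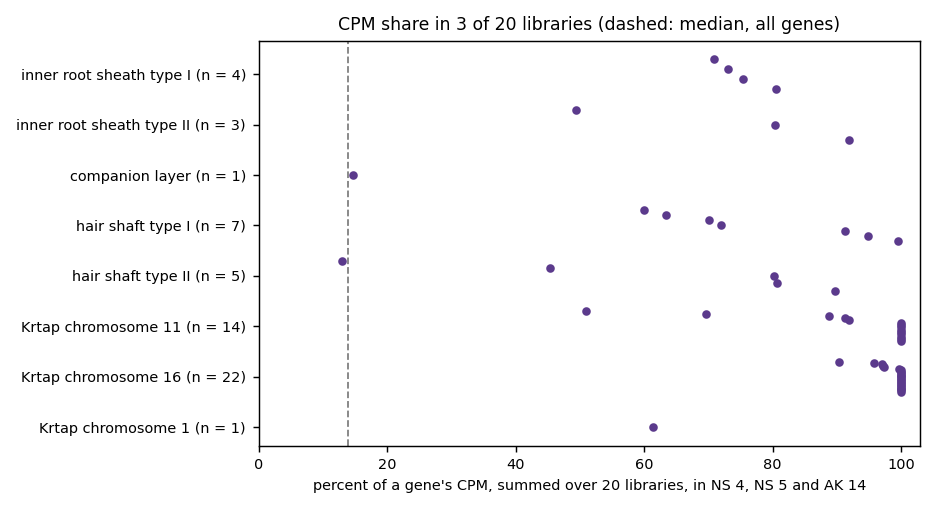
Percent of each member's CPM, summed over 20 libraries, that fell in NS 4, NS 5 and AK 14, for the 57 members with 10 or more counts, with 1 point for each gene and a dashed line at the median of all genes (13.9%). Krtap genes crowd at 100%, keratins spread from 13% to 99.5%, and Krt75 and Krt84 sit at the dashed line.

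The inner root sheath keratins were spread over libraries about as widely as the shaft keratins. Their median share of CPM in NS replicates 4 and 5 and AK replicate 14 was 75.3%, against 76.1% for the shaft keratins. For inner root sheath keratins the values by group were as follows. Their summed CPM ranged in NS from 1.74 to 281 with a median of 46.5, in AK from 2.74 to 189 with a median of 5.67, and was 13.2, 5.71, 4.55 and 2.98 in the cSCC. Krt25, a type I keratin of all inner root sheath layers, had 110 CPM in NS replicate 4, 93.6 in NS replicate 5, 25.4 in NS replicate 6, 23.8 in NS replicate 1 and between 0 and 4.15 in the other NS. In AK it had 75.1 CPM in replicate 14 and at most 4.34 in the rest, and in the cSCC it had 5.56, 0, 0 and 0.165. Its type II counterpart Krt71 followed the same order at the top, with 61.1, 49.7, 15.2 and 14.6 CPM in NS replicates 4, 5, 6 and 1 and 39.2 in AK replicate 14. NS replicate 1 thus held inner root sheath keratins (77.1 CPM in sum) at the level of NS replicate 6 (79.4 CPM), but its type I shaft keratins had 6.86 CPM and its chromosome 16 Krtap genes 0, against 15.8 and 17.5 CPM in NS replicate 6. Krt72 (95 counts in all) and Krt26 (123 counts) were lower, and Krt74, annotated as a pseudogene in mouse, had 5 counts in all.

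Across the 8 NS, Krt25 and Krt71 moved together. On log2(CPM + 1) the Pearson r was 0.989 (exact permutation p = 0.000149, adjusted p = 0.00313) and Spearman's rho was 0.976 (exact permutation, adjusted p = 0.00625), and r was 0.996 without the 2 libraries farthest from the median of Krt25. It was the only 1 of 21 pairs among the highest member of 6 classes (Krt25, Krt71, Krt75, Krt33a, Krt84 and Krtap3-2) and Hoxc13 to pass an adjusted p of 0.05. For Krt25 and the shaft keratin Krt33a, r was 0.80 and rho 0.81 (exact permutation adjusted p = 0.135 and 0.251), and r was 0.68 without 2 libraries. For Krt84 and Hoxc13, r was -0.68 (exact permutation adjusted p = 0.219). Without NS replicate 1, 3 pairs passed. No Krtap gene of chromosome 16 or of the other chromosomes was among these genes. Mice with and without irradiation are mixed in these 8 points.

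Krt73 was the inner root sheath keratin found most widely, with counts in 19 of 20 libraries. Its level was 1.45 to 31.5 CPM in NS with a median of 6.46, 1.60 to 9.95 CPM in AK with a median of 3.87, and 5.56, 4.83, 0 and 1.98 CPM in the cSCC. Outside NS replicates 4, 5 and 6 and AK replicate 14 it never passed 7.74 CPM, and the groups overlapped.

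**Figure D3:**
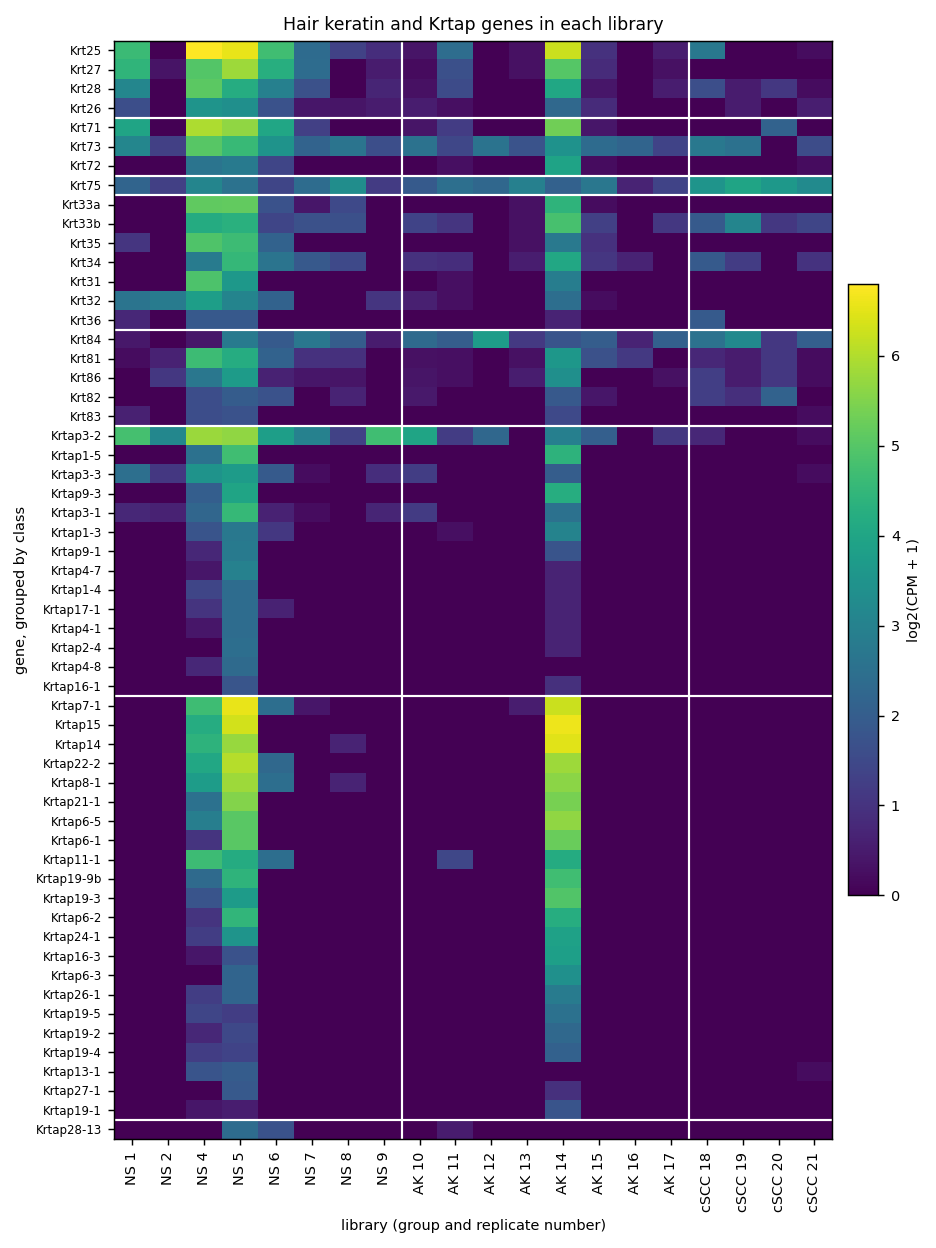
Level of the 57 members with 10 or more counts in each of 20 libraries, as log2(CPM + 1) by colour, with white lines between classes (from the top: inner root sheath type I and II, Krt75, shaft type I and II, Krtap of chromosomes 11, 16 and 1) and between groups. The columns of NS 4, NS 5 and AK 14 are filled through all classes, NS 1 is bright chiefly in the inner root sheath rows, Krt32, Krtap3-2 and Krtap3-3, and Krt75, Krt84 and Krt73 run across nearly all libraries.

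Among the shaft keratins, the cortex genes Krt31 and Krt33a had the highest shares in the same 3 libraries (99.5% and 94.9%). Krt31 had 85 and 50 counts in NS replicates 4 and 5 and 21 in AK replicate 14, and 1 count in the other 17 libraries together. Krt33a had 100, 154 and 67 counts in the same libraries and at most 6 elsewhere. Krt35, which is made early in the hair matrix and cortex, had 87, 107 and 19 counts there and at most 6 elsewhere. Krt33b was less restricted, with 21 counts in AK replicate 10 and 17 in cSCC replicate 19. Krt31, Krt33a, Krt33b and Krt34 shared between 11% and 24.7% of their 75-base stretches with each other or Krt35, and Krt81, Krt83 and Krt86 between 11.9% and 33.5% with each other or Krt87, so how their reads were divided is uncertain.

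Krt32, a keratin of the shaft cuticle, was spread more widely. It had 5.10 and 6.08 CPM in NS replicates 1 and 2, in which Krt31 and Krt33a had 0 counts, beside 12.9 and 7.42 CPM in NS replicates 4 and 5. In AK it reached 4.52 CPM in replicate 14 and at most 0.524 in the rest, and all 4 cSCC had 0 counts. Its annotated span overlaps Gm11571 on the opposite strand.

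Krt84 was found in 19 of 20 libraries and was not concentrated in the libraries above. It had 0.34 CPM in NS replicate 4, 5.85 in NS replicate 5 and 2.41 in AK replicate 14. Its highest levels were 12.6 CPM in AK replicate 12 (10 counts) and 8.35 CPM in cSCC replicate 19 (19 counts), and the NS mean was 2.28 ± 2.38 CPM (SD, n = 8). The means of the lesions were 3.77 ± 3.75 CPM (SD, n = 8) for AK and 4.37 ± 3.06 CPM (SD, n = 4) for cSCC. Krt84 shares no 75-base stretch with another gene.

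The Krtap genes of chromosome 16 include the families rich in glycine and tyrosine (Krtap6, Krtap8, Krtap19, Krtap21 and Krtap22). Their summed CPM was 559 in NS replicate 5, 144 in NS replicate 4, 17.5 in NS replicate 6 and 0 to 1.22 in the other NS. It was 640 in AK replicate 14 and 0 to 1.73 in the rest of AK. In the cSCC it was 0, 0, 0 and 0.165, that is 1 count of Krtap13-1 in replicate 21. Krtap7-1 had 94.3, 24.8 and 4.51 CPM in NS replicates 5, 4 and 6, 75.7 in AK replicate 14 and at most 0.468 elsewhere. Krtap8-1, whose promoter is printed above, had 54.9, 12.6 and 4.51 CPM in the same NS, 47.9 in AK replicate 14 and at most 0.609 elsewhere. Krtap22-2, Krtap21-1 and Krtap6-5 kept to these libraries too, with 0 counts in the other 16.

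Counts of Krtap14 and Krtap15 need care, since these genes overlap on opposite strands and the strand used in counting is not given. Krtap15 had 80.1, 17.3 and 96.8 CPM in NS replicate 5, NS replicate 4 and AK replicate 14 and 0 elsewhere. Krtap14 had 52.9, 20 and 88.1 CPM in the same libraries and 0.609 in NS replicate 8. Krtap6-1 shared 24.4% of its 75-base stretches, mostly with Gm10229 and other unnamed genes of its cluster.

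Per kilobase of exon, the Krtap genes led where the shaft programme was full. In NS replicate 5 the highest levels per kilobase were Krtap22-2 (178 CPM per kb), Krtap7-1 (152), Krtap8-1 (95.6) and Krtap15 (76.1), against 47.1 for Krt25. In AK replicate 14, Krtap22-2 (149 CPM per kb) and Krtap7-1 (122) led again, against 37.8 for Krt25. In NS replicate 4 the inner root sheath keratin Krt25 led instead, with 55.3 CPM per kb, before Krtap3-2 (52.3), Krtap22-2 (43.7) and Krtap7-1 (39.9). In NS replicate 1 the order was Krtap3-2 (26 CPM per kb), Krt27 (13.5) and Krt25 (11.9). These ratios between genes of 1 library have no replicate.

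On chromosome 11, the Krtap3 genes were found in more libraries than their neighbours. Every Krtap count in NS replicates 1, 2 and 9 and in AK replicate 10 (182, 33, 126 and 232 counts) came from Krtap3-1, Krtap3-2 or Krtap3-3. Krtap3-2 (ENSMUSG00000069721.2, chr11:99555823-99556853, minus strand) was highest in NS replicates 4 and 5 (53.9 and 49.9 CPM) and had 26.8 CPM in NS replicate 1, 25.3 in NS replicate 9, 14.7 in AK replicate 10 and 6.63 in AK replicate 14. Krtap1-5 of the same cluster had 112, 14 and 66 counts in NS replicate 5, NS replicate 4 and AK replicate 14 and 0 in the other 17 libraries. Krtap3-2 shared 27.1% of its 75-base stretches with Krtap3-3 or Krtap3-1, so the division within this family is uncertain. Krtap1-5 shared sequence with Krtap9-3 only. The Krtap genes of the other chromosomes were close to 0. Krtap28-13 of chromosome 1 led them with 25 counts in all, and Krtap12-1 had 2 counts, both in cSCC replicate 18.

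AK was compared with NS to ask whether the hair genes change in the precancerous lesion. No member passed edgeR's quasi-likelihood test, and only 4 of 77 members had counts in enough libraries to be tested. Krtap3-2 came closest. It had 1.52 to 53.9 CPM in NS with a median of 19.1, and 0 to 14.7 CPM in AK with a median of 2.25. The groups overlapped, with AK replicate 10 above 4 of the 8 NS. The log2 fold change was -2.48 ± 0.73 (SE) with an adjusted p of 0.0535. Krt73 had a log2 fold change of -1.38 ± 0.58 (SE) and an adjusted p of 0.150, Krt75 of -0.22 ± 0.46 (SE) and 0.803, and Krt84 of 0.53 ± 0.69 (SE) and 0.672. Genes were called at an adjusted p under 0.05 with a change of over 1.5-fold upward or to less than 0.67 downward, which 4.64% of the 11677 genes tested met, 2.26% higher and 2.38% lower in AK. The unadjusted p was below 0.05 for 2 of the 4 members, and DESeq2 called 1, Krtap3-2, with a log2 fold change of -2.62 and an adjusted p of 0.0289. Without AK replicate 10 the Krtap3-2 difference was -3.38 with an adjusted p of 0.0155 in edgeR.

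Among named members that were not tested, AK replicate 14 stood far above the rest of its group. Krt27 had 30.8 CPM in AK replicate 14 and at most 2.17 in the other 7, and Krt33a 20.2 and at most 0.234. Markers of epidermis and gland did not single out AK replicate 14 within its group, with summed CPM of 14773 for interfollicular epidermis (AK range 10027 to 22214), 1278 for sebaceous gland (735 to 1545) and 2540 for outer root sheath and bulge (1828 to 2745). The NS libraries rich in shaft genes, replicates 5 and 4, had the lowest NS values for sebaceous gland (408 and 567.9 CPM), outer root sheath and bulge (2485 and 2576), dermal papilla (13.5 and 14.2) and adipocyte genes (113 and 139). Keratins of stressed epidermis summed to 7910 CPM in AK replicate 14, 3919 in NS replicate 5 and 821 in NS replicate 4. Their part in the hair gene levels was not tested.

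cSCC was compared with NS to ask which hair genes are lost or gained in carcinoma. Of 8 members tested, 3 fell and 0 rose, where 7.65% of 12097 genes tested fell, 11.7% rose and 19.3% did either. The 3 were Krtap3-2, Krt27 and Krt32. The median log2 fold change of the 8 members was -5.02, beside 0.14 for all genes tested. Krt27 and Krt32 had 0 counts in cSCC and Krtap3-2 had 2, so they entered the test through NS. Members low in both groups could not enter, so neither this median nor the 3 of 8 describes the members as a set.

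For Krtap3-2, all 8 NS had between 1.52 and 53.9 CPM with a median of 19.1, and the 4 cSCC had 0.695, 0, 0 and 0.165 CPM, or 2 counts in all. The groups did not overlap, and edgeR gave a log2 fold change of -6.62 ± 1.23 (SE) with an adjusted p of 0.00377. Without cSCC replicates 20 and 21 it was -6.20 with an adjusted p of 0.0391, and it passed without any single library. In limma voom with quality weights it was -5.22 and did not pass, with an adjusted p of 0.259.

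Krt27, a type I inner root sheath keratin (ENSMUSG00000017588.2, chr11:99345565-99351104, minus strand), had 0 counts in all 4 cSCC. In NS it had 54.7 CPM in replicate 5, 30.2 in replicate 4, 20.9 in replicate 1, 18 in replicate 6 and 0 to 4.31 in the others. NS replicate 8 also had 0 counts, so the groups overlapped. Against a floor of 3 counts over the group, its mean was at least 57.1-fold lower in cSCC, and the edgeR adjusted p was 0.0402. Without 1 library the adjusted p of Krt27 rose above 0.05 in 8 of 12 cases (NS replicates 1, 4, 5 and 6 and each cSCC), the highest being 0.0964 without cSCC replicate 21.

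Krt32 (ENSMUSG00000046095.5, chr11:100080848-100088226, minus strand) also had 0 counts in all 4 cSCC. NS ranged from 0, in replicates 7 and 8, to 12.9 CPM in replicate 4. Its mean was at least 15.9-fold lower in cSCC, with an edgeR adjusted p of 0.0492, and this call was lost without any of NS replicates 1, 2, 4, 5, 6 or 9 or any of the cSCC, with adjusted p values up to 0.115. Without cSCC replicates 20 and 21 together, the adjusted p was 0.154 for Krt27 and 0.168 for Krt32.

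The other inner root sheath keratins pointed down without passing. By edgeR, Krt25 had a log2 fold change of -4.72 ± 1.80 (SE) with an adjusted p of 0.0799, Krt71 of -5.33 ± 2.20 (SE) with 0.102, Krt28 of -3.36 ± 1.54 (SE) with 0.140, and Krt73 of -1.67 ± 0.90 (SE) with 0.206. Without cSCC replicates 20 and 21 none of these passed either, with adjusted p values of 0.295, 0.206, 0.377 and 0.570 in the same order. The shaft genes that were richest in NS replicates 4 and 5 could not be tested, because too few libraries had counts. All 4 cSCC had 0 counts of Krt31, Krt33a and Krt35, and against the floor of 3 counts their means were at least 17.8-fold, 32.4-fold and 25.7-fold lower in cSCC, although 6, 3 and 4 of the 8 NS also had 0 counts.

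Krt75 went the other way. The companion layer keratin (ENSMUSG00000022986.5, chr15:101563345-101573904, minus strand, overlapping Gm44460 on the opposite strand) had 10.4, 14.5, 11.4 and 8.44 CPM in the cSCC, 1.28 to 9.13 CPM in NS with a median of 3.91, and 0.599 to 6.78 CPM in AK with a median of 3.55. On this scale every cSCC lay above every AK, and NS replicate 8 lay above cSCC replicate 21. The scaling factor of cSCC replicate 18 was 0.509. As a share of its raw counts, Krt75 there was 0.000530%, below AK replicates 13 (0.000704%) and 15 (0.000571%). The cSCC and AK groups thus overlapped without that scaling. Against NS the log2 fold change was 1.45 ± 0.53 (SE) with an adjusted p of 0.0687 by edgeR.

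Against AK, Krt75 rose in cSCC and was the only 1 of 4 members tested to pass. The log2 fold change was 1.72 ± 0.49 (SE) with an adjusted p of 0.0215 by edgeR, where 16% of 12032 genes tested rose, 8.34% fell and 24.4% did either. Without cSCC replicate 19 it was 1.56 with an adjusted p of 0.0605, and without cSCC replicates 20 and 21 it was 1.83 with an adjusted p of 0.0626. With library size alone as the scaling it was 1.49 with an adjusted p of 0.0692, and that scaling moved the median of all genes from 0.17 to -0.09. Krtap3-2 had a log2 fold change of -4.01 ± 1.52 (SE) with an adjusted p of 0.0669, Krt84 of 0.50 ± 0.68 (SE) with 0.628 and Krt73 of -0.26 ± 0.69 (SE) with 0.812.

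**Figure D4:**
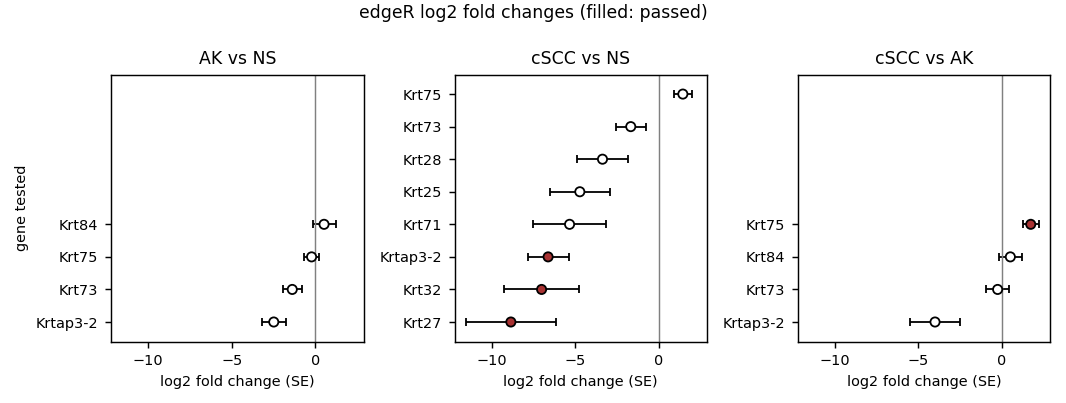
Log2 fold changes from edgeR's quasi-likelihood test for the members tested in each comparison, with bars of 1 SE and filled points where the adjusted p was under 0.05. No point is filled for AK vs NS, Krt27, Krt32 and Krtap3-2 are filled and negative for cSCC vs NS, and Krt75 is filled and positive for cSCC vs AK.

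Markers of other cell types moved in the same comparison. In cSCC vs NS, 5 of 8 interfollicular epidermis genes fell, as did 5 of 8 sebaceous gland genes and 1 of 9 genes of the outer root sheath, infundibulum and bulge. Of all genes tested, 7.65% fell. The summed interfollicular level was 17917, 16940, 5113 and 3688 CPM in the cSCC against 8439 to 23248 in NS. Krt14 alone gave 14100, 13516, 4115 and 2917 CPM of the cSCC sums, against 3660 to 13137 in NS. Krt1, Krt10, Lor and Flg were at most 820, 321, 18.8 and 460 CPM in any cSCC. In NS they were at least 933, 899, 228 and 1279 CPM. Krt5, Ivl and Krt2 overlapped between the groups. The summed sebaceous level was 440, 263, 658 and 159 CPM in the cSCC against 408 to 2923 in NS, with Awat2 and Mc5r at 0 in all cSCC. The summed outer root sheath level was 1473 to 4408 CPM in cSCC and 2485 to 4790 in NS. This sum was mostly Krt17 in the cSCC, with 3879, 3713, 1038 and 2672 CPM against 1174 to 2507 in NS. Other genes of the list moved differently. Krt79 had 1.82 to 75.1 CPM in cSCC against 562 to 1623 in NS, and Krt15 28.4 to 404 against 104 to 887. Cd34 had 223, 171 and 206 CPM in cSCC replicates 19 to 21 against at most 149 in NS. Of 8 skeletal muscle genes, 5 fell, with sums of 1071, 550, 898 and 8330 CPM in the cSCC against 727 to 8638 in NS. The sum of replicate 21, a library with heart transcripts, was mostly Acta1 (6859 CPM) and Ckm (1445 CPM). Mylpf and Tnnt3 had 5.95 and 6.12 CPM there, against 93.5 to 1362 and 217 to 1762 in NS. The dermal papilla genes summed to 64.6, 108, 163 and 280 CPM in cSCC replicates 18 to 21 against 13.5 to 56.3 in NS. These sums did not overlap but rested on few genes. Crabp1 gave 58.3 of the 64.6 CPM in replicate 18 and 68.1 of the 108 in replicate 19. In replicate 20, Vcan gave 51.2 CPM and Crabp1 38.7. In replicate 21, which held heart transcripts, Corin gave 143 CPM and Alpl 72.1. Of the 3 genes tested, 1 rose, which was Crabp1. Without cSCC replicates 20 and 21, 3 of 8 interfollicular, 4 of 9 sebaceous, 2 of 10 outer root sheath and 1 of 8 skeletal muscle genes tested fell, and Crabp1 still rose. Their part in the fall of hair genes was not tested.

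Regulators of the hair follicle also changed in carcinoma. Of a list of 24, 18 were tested in cSCC vs NS and 6 fell (Prdm1, Dlx3, Egr2, Vdr, Hoxc13 and Bmpr1a) while Cux1 rose. Of all genes tested there, 7.65% fell and 11.7% rose. Hoxc13, the homeobox factor that switches on hair keratin genes, had 2.44 to 22.0 CPM in NS and 3.47, 0, 0 and 0 CPM in the cSCC. Its log2 fold change was -4.03 ± 1.12 (SE) with an edgeR adjusted p of 0.0229. Over 21 alternatives it ranged from -8.48 to -2.91, and the call was lost under 3 of them, which were limma voom (adjusted p = 0.133), leaving out cSCC replicate 19 (0.0577) and leaving out cSCC replicates 20 and 21 (0.113). Among NS, Hoxc13 was 22.0 and 20.9 CPM in replicates 1 and 2, 18.7 and 11 in replicates 4 and 5, and 5.63 in replicate 6. Dlx3, a homeobox factor of the hair matrix, had a log2 fold change of -2.98 ± 0.62 (SE) with an adjusted p of 0.00658, and Vdr, the vitamin D receptor needed for hair cycling, of -1.79 ± 0.43 (SE) with 0.0116. In cSCC vs AK, 8.34% of all genes tested fell and 16% rose. Of 15 regulators tested there, 5 fell (Prdm1, Dlx3, Bmpr1a, Vdr and Egr2) and 2 rose (Cux1 and Bmp4). Neither gene passed without cSCC replicates 20 and 21, the libraries with lung or heart transcripts. Cux1 had 7.64, 32.5, 81.9 and 98.7 CPM in cSCC replicates 18 to 21, against 4.26 to 29.2 in NS and 5.39 to 13.8 in AK, and without replicates 20 and 21 its log2 fold change was 0.29 against NS and 1.13 against AK, with edgeR adjusted p values of 0.780 and 0.121. Bmp4 had 4.17, 0.879, 61.4 and 9.10 CPM in the same cSCC and 0 to 5.84 in AK, and without them its log2 fold change against AK was 0.10 with an edgeR adjusted p of 0.962. Of the falls against NS, those of Prdm1, Dlx3, Egr2 and Vdr passed without them (4 of 19 regulators tested, where 12.2% of all genes tested were called in either direction) and those of Hoxc13 and Bmpr1a did not. Against AK, those of Prdm1, Dlx3, Bmpr1a and Egr2 passed (4 of 18, beside 12.6% of all genes) and that of Vdr did not.

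In AK vs NS, 2 of 18 regulators tested fell and 0 rose, where 2.38% of all genes tested fell and 2.26% rose. The mean level of Hr, the corepressor that is defective in this strain, was 7.19 ± 3.19 CPM (SD, n = 8) for NS against 2.04 ± 1.10 CPM (SD, n = 8) for AK, with a log2 fold change of -1.86 ± 0.41 (SE) and an edgeR adjusted p of 0.02. The call was lost with all 20 samples in 1 fit (adjusted p = 0.142) and without NS replicate 4 (0.0509), 2 of 24 alternatives. Egr2 had a log2 fold change of -1.13 ± 0.30 (SE) with an adjusted p of 0.0387. Hoxc13 had -1.36 ± 0.45 (SE) with an adjusted p of 0.0767. Foxn1, the factor lost in nude mice, and Lef1, which mediates Wnt signals in the matrix, were too low to test, at up to 4.17 and 3.60 CPM.

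Other structural genes of the shaft and root sheath showed the libraries rich in hair genes again. S100a3, a calcium-binding protein of the hair cuticle, had 170, 67.7 and 53.0 CPM in NS replicates 4, 5 and 6 and 65.1 in AK replicate 14, and at most 13.2 CPM in the others. Gprc5d had 7.12, 28.8 and 22.6 CPM in NS replicates 4 and 5 and AK replicate 14 and at most 1.30 elsewhere. Tchh, the trichohyalin of the inner root sheath and medulla, was highest in NS replicate 5 (207 CPM) and AK replicate 14 (119 CPM) but was also found in all the others at 0.992 to 77.7 CPM. Of the 16 genes on this list, 0 of 7 tested were called in AK vs NS and 0 of 7 in cSCC vs AK. In cSCC vs NS, Padi3 rose and Hephl1 fell among 8 tested, where 11.7% of all genes tested rose and 7.65% fell. Without cSCC replicates 20 and 21, Padi3 and Hephl1 did not pass against NS (edgeR adjusted p of 0.0690 and 0.0658), and 0 of 11 and 0 of 7 genes of this list were called against NS and AK.

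**Figure D5:**
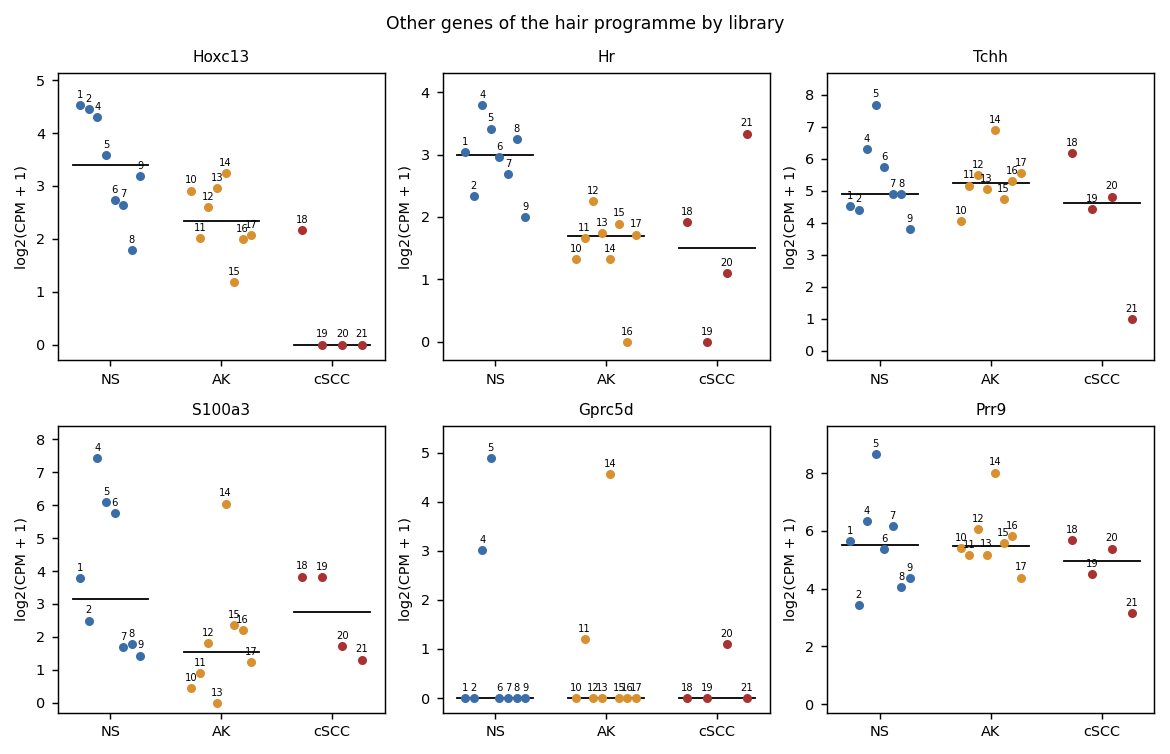
Level of 6 other genes of the hair programme on the log2(CPM + 1) scale, with 1 point for each library, its replicate number above it and a bar at the group median. Hoxc13 is highest in NS 1 and NS 2 and is 0 in 3 of 4 cSCC, whereas S100a3, Gprc5d and Prr9 have single high AK points at AK 14.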

How the data were processed

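Expression was measured by RNA-seq of bulk skin from 8 female SKH-1 mice that were 7 months of age at the start (8 NS, 8 AK, 4 cSCC). The authors deposited raw read counts per gene symbol, with no normalization. Per the submitters' processing notes, Trimmomatic 0.36, HISAT2 2.0.5 and featureCounts 1.5.2 were used and mm9 and hg19 are listed as builds, whereas the study's methods name GRCm38 and StringTie. The labels give a HiSeq and the methods another Illumina instrument. The strand and the treatment of reads with several matches in counting are not given in the sources used here, which matters for clustered, near-identical genes. Coordinates are from the GENCODE M21 annotation of GRCm38, and promoters from RefSeq (GRCm38.p6). No sequencing batch was given.

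Groups were taken from the sample labels. CPM were computed with TMM factors over 20 samples in edgeR 4.0.16 (R 4.3.3). Of 22090 genes, 18160 had a count. Each comparison between groups used only the samples compared, genes kept by filterByExpr, edgeR's quasi-likelihood test and Benjamini-Hochberg adjustment over all genes tested. SE were derived from the fold change and the square root of the F statistic. Tested on simulated data with a log2 fold change of 2, the share of changed genes recovered was 90.3% (196 genes, AK vs NS), 45.8% (192 genes, cSCC vs NS) and 59.8% (194 genes, cSCC vs AK). A library's detection limit was 3 counts (0.225 to 3.78 CPM), which covers counting error only, and a group's limit was 3 counts over all its libraries. Correlations used log2(CPM + 1), all pairings and Benjamini-Hochberg adjustment over 21 pairs. Shared sequence was measured as the percent of a gene's 75-base exon stretches found in another annotated gene. Thinned gene numbers are expected values at 775750 counts. Alternatives were DESeq2 1.42.0, limma 3.58.1 voom, other scalings and filters, and leaving out libraries. Levels and correlations were computed in Python 3.11.15 with scipy 1.17.1, pandas 2.3.3 and numpy 2.4.6.

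The named genes were members called in any comparison, the 15 members with the highest mean CPM, the leading member of each class, members of each class by count, Hoxc13, Foxn1, Hr, Tchh and Lef1, and called genes of the regulator and structural lists. Others were chosen after their values were seen. The members and lists were chosen with earlier results of these data known.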

Additional observations from a re-analysis of the deposited data

Results flagged for a closer look

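A library was singled out where its gap to the nearest of the others, divided by the range of its group, passed Dixon's 95% critical value. Of 93 groups of values tested, 33 passed, and chance passes about 1 in 20 groups of normally spread values. That rate does not hold where every other library of a group is at 0, since the ratio is then 1 by construction. Such cases in AK replicate 14 were Krtap15, Krtap14, Krtap22-2, Krtap8-1, Krtap21-1 and Krtap6-5. In cSCC replicate 18 they were Krtap12-1, Hoxc13 and the Krtap genes outside chromosomes 11 and 16. Krt71 in cSCC replicate 20, chromosome 16 Krtap genes in cSCC replicate 21 and Krtap5-2 in NS replicate 5 were others. So were Krtap28-13 and the Krtap genes of other chromosomes in AK replicate 11. Values of one library are not independent of each other.

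AK replicate 14 gave 21 of the 33. Its summed CPM was 125 for type I and 63.6 for type II inner root sheath keratins (189 together), 80.5 for type I shaft keratins, 108 for all shaft keratins, 640 for chromosome 16 Krtap genes, 707 for all Krtap genes and 1008 for all members, while the next AK library had at most 34.5 in any of these. By gene, inner root sheath keratins stood at 75.1 CPM (Krt25), 30.8 (Krt27), 15.4 (Krt28) and 39.2 (Krt71). Shaft keratins stood at 4.52 (Krt32) and 20.2 (Krt33a). Krtap genes stood at 75.7 (Krtap7-1), 96.8 (Krtap15), 88.1 (Krtap14), 54.3 (Krtap22-2), 47.9 (Krtap8-1), 41.0 (Krtap21-1) and 49.5 CPM (Krtap6-5). The source of these transcripts in a tissue labelled AK was not tested.

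In NS, replicate 5 stood out for Krtap21-1 (45.2 CPM) and Krtap5-2 (0.900 CPM). In cSCC, replicate 18 stood out for type I inner root sheath keratins (7.64 CPM in sum), Krt25 (5.56 CPM), Hoxc13 (3.47 CPM), Krtap12-1 (1.39 CPM) and the Krtap genes outside chromosomes 11 and 16 (1.39 CPM). Krt71 in cSCC replicate 20 (3.41 CPM) and chromosome 16 Krtap genes in cSCC replicate 21 (0.165 CPM) rested on 3 counts and 1 count. In AK replicate 11, Krtap28-13 and with it the Krtap genes of other chromosomes stood at 0.434 CPM. Hr was at 0 CPM in AK replicate 16, against 1.5 to 3.78 CPM in the rest of AK.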

How the results depend on the processing

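The count of members called moved with the processing. In AK vs NS it was 0, and 1 with DESeq2, library size alone, upper quartile factors or limma voom with quality weights, 2 with unadjusted p, and 0 to 1 when single libraries were left out. In cSCC vs NS it was 3, and 5 with DESeq2 (4 lower, 1 higher), 1 (higher) with limma voom, 1 without cSCC replicates 20 and 21, 7 with unadjusted p, and 1 to 4 without single libraries. In cSCC vs AK it was 1, and 2 with DESeq2, with all 20 samples in 1 fit or with unadjusted p, 0 with no filter on low counts, with limma voom or without cSCC replicates 20 and 21, and 0 to 2 without single libraries. Scaling by library size alone moved the median of all genes in cSCC vs NS from 0.14 to -0.17, and 4 members were called lower. One pair of genes passed within NS, and 1 to 3 pairs without single libraries. The cause of these shifts was not tested. Directions that reversed belonged to differences near 0. Krt75 in AK vs NS was 0.042 in limma voom and -0.414 to 0.028 without single libraries (above 0 without NS replicate 8). Krt73 in cSCC vs AK was 0.40 without cSCC replicates 20 and 21 and -0.691 to 0.057 without single libraries (above 0 without cSCC replicate 20). Krt84 in cSCC vs AK was -0.0097 to 0.796 without single libraries (below 0 without cSCC replicate 19). For single genes, 391 values under alternatives kept their direction and their side of the threshold, 33 lost a call, 32 gained one and 5 reversed. A filter of 10 counts in every sample left no member to test in any comparison. No paired analysis was possible because the groups share no replicate numbers and the labels give no mouse. Low depth limits cSCC replicate 20 and AK replicate 12, where 3 counts stand for 3.41 and 3.78 CPM.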
